A study of Mus musculus with 4 samples.

Results

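Translation initiation and elongation factors were examined in muscle stem cells (MuSCs) of plantaris muscle, sham-operated or overloaded by tenotomy. The members were all protein-coding genes of the count table whose symbols begin with Eif1 to Eif6, Eef1 or Eef2, which gave 66 of 19353 genes, 53 named Eif and 13 named Eef. All libraries came from Pax7-CreERT2:Rosa-YFP mice. In these mice tamoxifen lets a Cre recombinase driven by the Pax7 locus switch on yellow fluorescent protein (YFP), so the sham group carried the same alleles and label as the overloaded group. For the overload, the distal tendons of the gastrocnemius and soleus were cut, which loads the plantaris. The sham operation was the skin incision alone. At 4 days after surgery YFP-positive cells were sorted at 100 cells per tube and sequenced by CEL-Seq2. CEL-Seq2 reads the 3' end of poly(A) RNA and tags each captured molecule with a unique molecular identifier (UMI), and counts are therefore molecules that need no division by transcript length. There were 2 sham and 2 overloaded libraries. Whether the 2 libraries in a group derived from separate mice, how many mice were pooled, whether a sham and an overloaded library shared mice (elsewhere in the study the sham muscle was contralateral to the overloaded one), and the age of the mice are not given in the sources used here, and p-values measure only the spread between these libraries.

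Depth was 269683 and 260488 UMIs in sham and 387955 and 483528 in overloaded libraries. At 100 cells per tube this was 2697 and 2605 UMIs per cell in sham and 3880 and 4835 in overloaded MuSCs. All 10 MuSC markers examined, Pax7, Myf5 and Cdh15 among them, had UMIs in every library and together made up 0.586% and 0.519% of UMIs in sham and 0.508% and 0.467% in overloaded cells. By edgeR's quasi-likelihood test, 5 of the 10 were lower (Calcr from 37 and 57 to 15 and 15 UMIs, Chrdl2 from 114 and 126 to 36 and 45, Sdc4, Vcam1 and Pax7) and 2 higher (Itga7 and Cdh15), where 26.3% of all genes were lower and 25.8% higher. Pax7 had 118 and 107 against 108 and 137 UMIs in the deeper overloaded libraries and fell by 0.84 (adjusted p = 0.000635, edgeR). The 9 leukocyte markers had 0 and 1 UMIs in sham against 62 and 149 in overloaded libraries, with Lyz2 the most abundant, and the 6 cell cycle markers had 4 and 10 against 428 and 534. The 8 myofiber markers went from 433 and 221 UMIs to 1332 and 1568, led by Acta1, and 7 of them were tested and higher. The 5 mural markers, led by Acta2, went from 173 and 152 to 452 and 648 UMIs, with Rgs5 and Acta2 higher and Tagln lower. The 5 endothelial markers held 8 and 3 against 35 and 30 UMIs. The 5 fibro-adipogenic markers, led by Col1a1, held 300 and 280 against 521 and 572, and of 3 tested Ly6a was higher (1 and 0 against 22 and 41 UMIs), Dcn lower (85 and 93 against 125 and 141 UMIs, a log2 fold change of -0.38) and Col1a1 did not pass (-0.01). The part of these other transcripts in the changes given here was not tested, and in pools of sorted cells fewer cells of a type and less RNA per cell cannot be told apart.

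Protein synthesis begins when the small ribosomal subunit, carrying initiator tRNA on eIF2 and bound by eIF1, eIF1A, eIF3 and eIF5, is brought to the capped 5' end of an mRNA by the eIF4F complex of the cap-binding protein eIF4E, the scaffold eIF4G and the helicase eIF4A. It scans to a start codon, eIF2 leaves with GDP, eIF5B joins the large subunit, and the eEF1 complex and eEF2 then deliver aminoacyl-tRNA and move the ribosome along. In muscle stem cells this step is known for its control: phosphorylation of eIF2α, the product of Eif2s1, holds back translation in quiescent cells, and TORC1 signaling, which frees eIF4E from its binding proteins, accompanies activation. mRNA counts report neither phosphorylation nor protein.

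In overloaded MuSCs the mRNAs of the eIF4E-binding proteins Eif4ebp1 and Eif4ebp2 rose, and Eif4e itself fell. Eif4ebp1 and Eif4ebp2 were higher by 1.07 and 1.08 on the log2 scale, and Eif4e was at 0.363 of its sham level. Within eIF2, Eif2s1 was 1.80-fold higher and Eif2s2 was at 0.376 of its sham level. The exchange factor subunit Eif2b1 and the eIF2α kinase Eif2ak1 were 3.33- and 3.42-fold higher. The abundant mRNAs Eif1 and Eef2 fell to 0.457 and 0.431 of their sham levels under TMM scaling, and did not pass with offsets that follow abundance. Of 51 factors with enough UMIs to test, 12 (23.5%) were higher, 18 (35.3%) were lower and 21 did not pass an adjusted p of 0.1 (edgeR quasi-likelihood test with TMM scaling, Benjamini-Hochberg over 7228 genes). Among all genes tested, 25.8% were higher and 26.3% lower, so the share of higher factors was near that of all genes and that of lower factors above it. These shares of all genes were not matched for abundance. With genes ranked by mean level in 10 bins, 16 of the factors were in the highest bin and 10 in bin 9. Among all genes of these bins 70.8% and 44.5% were lower, and 5.81% and 20.2% higher. An excess of lower factors over genes of like abundance was not tested. Of the 51, 7 passed the filter on low counts through the overloaded libraries and not through both sham libraries, and 5 of these were among the 12 higher (Eef1a2, Eif2ak1, Eif2b1, Eif2b2 and Eif4enif1). Among the 44 that passed in both groups 15.9% were higher and 40.9% lower, beside 14.9% and 32.9% of 4745 genes. In 40 of the 51 the sham and overloaded libraries did not overlap, where 72.9% of all genes tested did not overlap. The factors changed by a median log2 fold change of -0.19, beside 0.05 for all genes, within a range of -1.46 to 2.23.

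The split between higher and lower factors depended on the scaling. TMM assumes that most genes do not change in share of RNA, and it gave 12 higher and 18 lower. Library sizes alone gave 17 and 11, where 37.3% of all genes were higher and 18.7% lower. Upper-quartile factors gave 16 and 13, where 28.9% of all genes were higher and 23.1% lower. Offsets that follow abundance, fitted by loess in each library, gave 15 and 5, where 20.8% of all genes were higher and 21.8% lower. UMIs per tube without scaling gave 34 and 2, where 62% of all genes were higher and 4.58% lower, so that the per-tube counts moved with those of all genes. With the abundance offsets more factors were higher than under TMM, although a smaller share of all genes was higher. DESeq2 gave 4 and 11, where 10.5% of all genes were higher and 14.5% lower. The median of all genes moved from 0.05 under TMM to 0.33 with library sizes alone, 0.15 with upper-quartile factors and 1.01 per tube. The median of the factors lay 0.24 below that of all genes under each of these, and 0.24 above it with the abundance offsets. Under TMM, library sizes, upper-quartile factors, DESeq2 size factors and abundance offsets alike, 8 factors were higher (Eif6, Eif4e2, Eif2s1, Eef1e1, Eif4ebp1, Eif4ebp2, Eif2b1 and Eif2ak1), and they were also higher per tube. This was 15.7% of the factors, beside 16.3% of all genes. Eif2b1 and Eif2ak1 passed the filter on low counts through the overloaded libraries and not through both sham libraries. Neither share leaves out such genes. Under the same 5 scalings 5 factors (9.8%) were lower (Eif4e, Eif5, Eif2s2, Eif3j1 and Eif4g3), beside 15.3% of all genes. Of these Eif5 and Eif2s2 were also lower per tube, as were 4.54% of all genes. For 16 of the 51 (31.4%) the sign differed between the 5 scalings, beside 21.4% of all genes. These counts were thus near or below those of all genes, except for the turning signs.

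**Figure D1:**
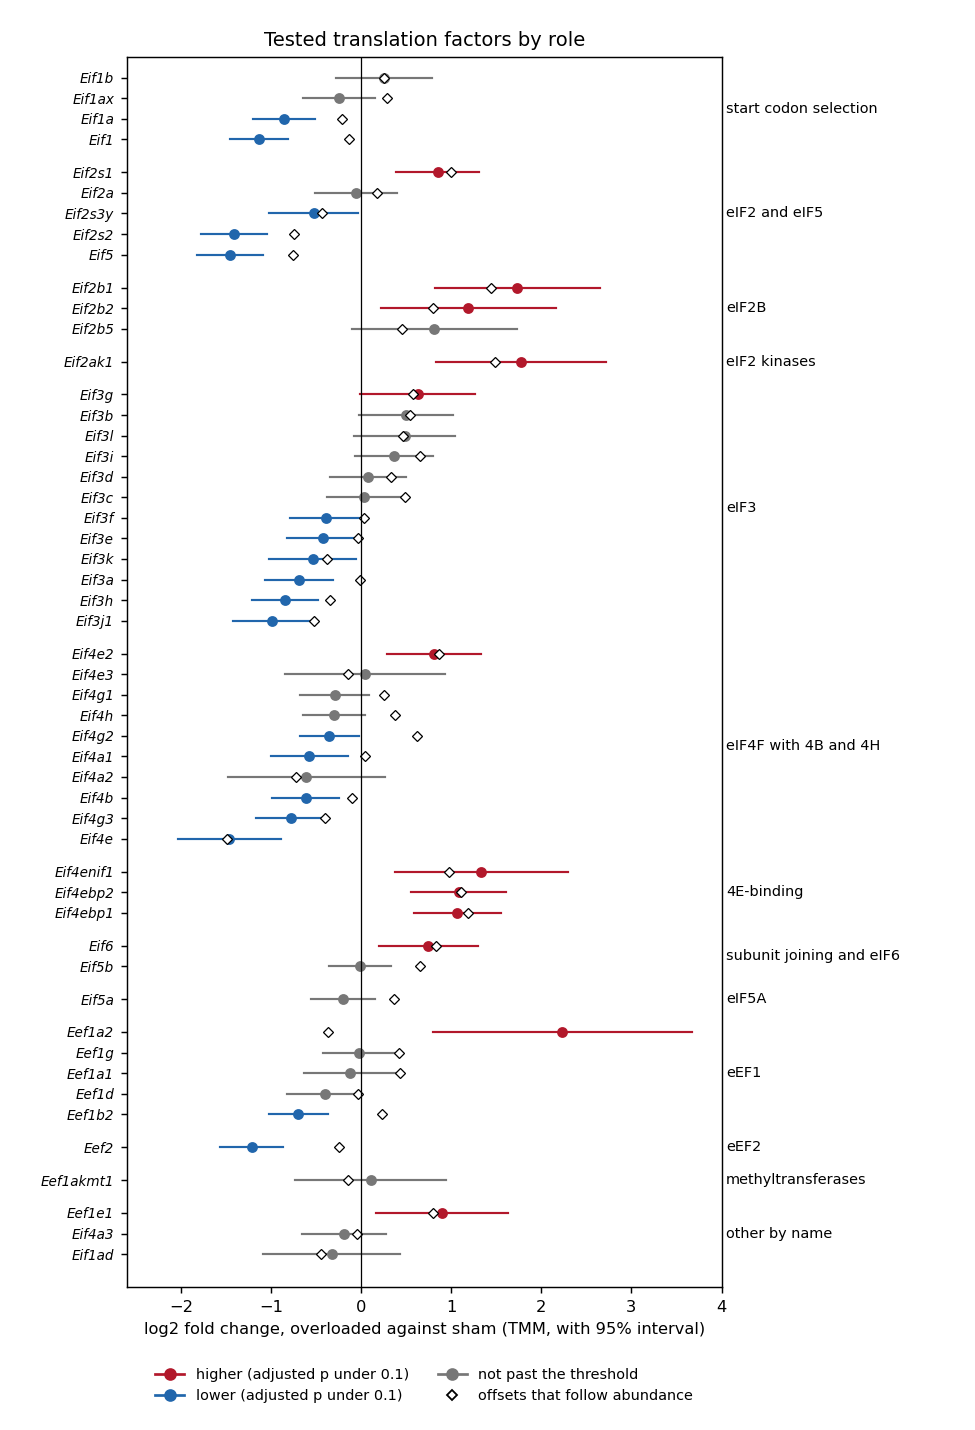
Log2 fold change of the 51 tested factors, overloaded against sham, grouped by role; points are TMM-scaled edgeR estimates with 95% intervals, coloured by call, and diamonds are the values with offsets that follow abundance. The 4E-binding proteins, Eif2b1 and Eif2ak1 lie to the right and Eif4e, Eif5 and Eif2s2 to the left with either scaling, while Eif1, Eef2 and Eif3a move towards 0 with the offsets.

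The cap-binding protein and its inhibitors moved in opposite directions. Eif4e, the cap-binding subunit (GRCm38, chr3:138526179-138559696, plus strand), had 33 and 45 UMIs in sham and 25 and 30 in overloaded libraries, although the overloaded libraries were deeper. Its level was 174 ± 42.6 normalised CPM (UMIs scaled to a common total) in sham and 62.9 ± 3.01 in overloaded cells (mean ± SD, n = 2 libraries each). The groups did not overlap and Eif4e fell by 1.46 on the log2 scale (SE 0.27, adjusted p = 0.000393, edgeR). This value was -1.49 with the abundance offsets (adjusted p = 0.000181, edgeR), and DESeq2 gave an adjusted p of 0.0115.

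Eif4ebp1, whose product 4E-BP1 sequesters eIF4E until TORC1 phosphorylates it (chr8:27260329-27276674, plus strand), had 25 and 21 UMIs in sham against 79 and 110 in overloaded libraries. The level went from 109 and 95.1 CPM to 205 and 223 and rose by 1.07 (SE 0.23, adjusted p = 0.00116, edgeR), and both overloaded libraries lay above both sham libraries. Eif4ebp2, its paralog, had 18 and 20 against 64 and 94 UMIs and a log2 fold change of 1.08 (adjusted p = 0.00209). Eif4enif1, which encodes the nuclear import factor 4E-T that also binds eIF4E, had 7 and 4 against 19 and 36 UMIs, or 24.3 ± 8.73 against 61.2 ± 16.6 CPM, and rose by 1.34 (SE 0.46, adjusted p = 0.0244). The rise of Eif4enif1 rested on few molecules: it missed the threshold without sham library 2 (0.98, adjusted p = 0.170), without overloaded library 2 (adjusted p = 0.256), in DESeq2 (adjusted p = 0.226) and narrowly with the abundance offsets (0.98, adjusted p = 0.106). Eif4e2, whose product 4EHP binds caps without joining eIF4F and is known as a repressor, had 19 and 26 against 68 and 86 UMIs and rose by 0.81 (adjusted p = 0.0129). Without sham library 1 the value for Eif4e2 was 0.54 (adjusted p = 0.207), and DESeq2 gave an adjusted p of 0.180. Eif4ebp2 and Eif4e2 were singled out after their values were seen.

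These changes could be read without any scaling, as ratios of UMIs within a library. Each Eif4e molecule was matched by 0.758 and 0.467 Eif4ebp1 molecules in the sham libraries and by 3.16 and 3.67 in the overloaded libraries. Over the group the ratio was 0.590 in sham (95% Clopper-Pearson interval 0.40 to 0.86, counting error only) and 3.44 in overloaded cells (2.53 to 4.73), 5.83 times as large. Pairing any overloaded with any sham library gave between 4.17 and 7.86 times. Eif4ebp2 went from 0.545 and 0.444 per Eif4e molecule to 2.56 and 3.13, and Eif4e2 from 0.576 and 0.578 to 2.72 and 2.87. In sham cells Eif4e was thus the most abundant mRNA of these 4 and in overloaded cells the least. With 2 libraries against 2 an exact permutation test cannot go below a two-sided p of 0.333, and the ratios, picked after their values were seen, were not tested.

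**Figure D2:**
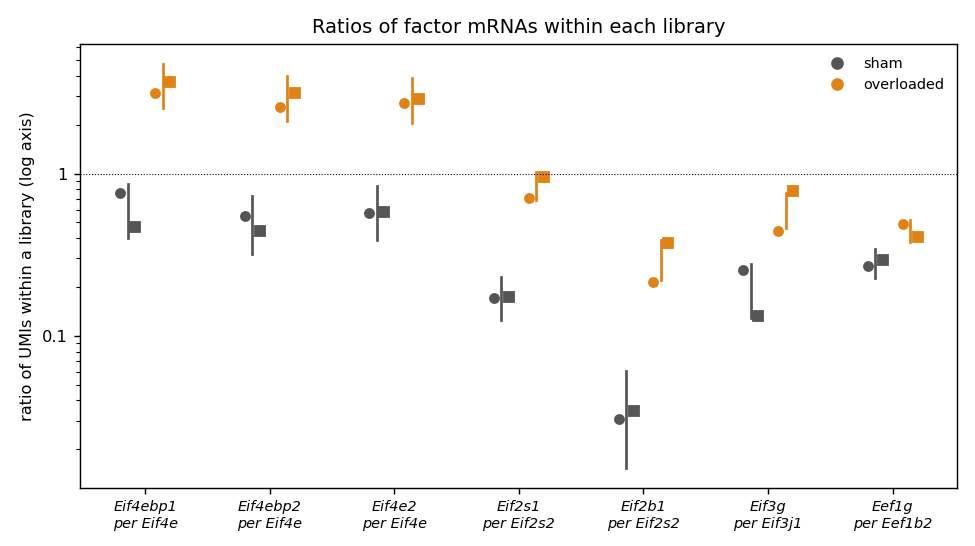
Ratio of UMIs of paired factors within each library on a log axis, sham in grey and overloaded in orange (circle replicate 1, square replicate 2), with bars for the 95% Clopper-Pearson interval of the group's pooled UMIs. For Eif4ebp1, Eif4ebp2 and Eif4e2 per Eif4e both sham libraries lie below 1 and both overloaded libraries above 1.

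The rest of the eIF4F group moved less. Of its 10 tested members 1 was higher (Eif4e2) and 5 lower (Eif4e, Eif4g3, Eif4b, Eif4a1 and Eif4g2), beside 25.8% and 26.3% of all genes. With the abundance offsets 3 were higher and 2 lower, beside 20.8% and 21.8% of all genes, and the median log2 fold change of the group was -0.03 in place of -0.46. Eif4a1, the main eIF4A helicase, had 119 and 91 against 147 and 124 UMIs and fell by 0.57 (SE 0.20, adjusted p = 0.0292, edgeR), but this became 0.04 with the abundance offsets and -0.24 without overloaded library 2 (adjusted p = 0.275). Without sham library 1 it was -0.43 (adjusted p = 0.219). Eif4a2, its paralog, had 30 and 9 UMIs in sham and 18 and 32 in overloaded libraries. These overlap, the log2 fold change was -0.61 (SE 0.42, adjusted p = 0.250), and the sign turned to 0.44 without sham library 1 while without sham library 2 it was -1.24 (adjusted p = 0.00542). Eif4g1, the scaffold, had 74 and 88 against 123 and 134 UMIs and a log2 fold change of -0.29 (SE 0.18, adjusted p = 0.205), which was 0.25 with the offsets.

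Eif4g2 encodes DAP5, a relative of eIF4G without the eIF4E-binding site that serves cap-independent initiation. It was the most abundant mRNA of this group, at 222 and 206 against 291 and 362 UMIs and 950 ± 23.4 against 745 ± 16.7 CPM. Under TMM it fell by 0.35 (SE 0.15, adjusted p = 0.0729, edgeR), and with the abundance offsets it rose by 0.62 (adjusted p = 0.000638). It missed the threshold with library sizes alone, at -0.07, and when either sham library was left out, at -0.36 and -0.42 with adjusted p of 0.310 and 0.232 (edgeR). The direction for Eif4g2 therefore depended on the scaling.

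The ternary complex that carries initiator tRNA was split. Eif2s1, the α subunit whose phosphorylation lowers initiation (chr12:78861819-78887010, plus strand), had 28 and 25 UMIs in sham and 79 and 108 in overloaded libraries, or 118 ± 6.10 and 212 ± 9.40 CPM. It rose by 0.85 (SE 0.22, adjusted p = 0.00468, edgeR), with an adjusted p of 0.00122 under the offsets, while DESeq2 gave an adjusted p of 0.114. Eif2s2, the β subunit (chr2:154871410-154892935, minus strand), had 163 and 145 against 111 and 113 UMIs, so both overloaded libraries held fewer molecules in spite of their depth. It went from 683 ± 37.2 to 259 ± 42.3 CPM and fell by 1.41 (SE 0.17, adjusted p = 7.46e-06), or by 0.74 with the offsets (adjusted p = 0.000502, edgeR). The ratio of Eif2s1 to Eif2s2 molecules, 2 subunits that enter the complex in equal number, was 0.172 in both sham libraries and 0.712 and 0.956 in the overloaded libraries.

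The γ subunit has an X-linked and a Y-linked gene. Eif2s3y had 44 and 32 against 43 and 60 UMIs and fell by 0.52 (adjusted p = 0.0791), a call lost without sham library 1 (-0.34, adjusted p = 0.444) and with the offsets (-0.44, adjusted p = 0.164). Leaving out either overloaded library also ended it (-0.45 and -0.55, adjusted p of 0.218 and 0.176, edgeR). Eif2s3x had 6, 2, 8 and 10 UMIs and was not tested. Y-linked transcripts were present in all 4 libraries, and 2 others also fell: Ddx3y from 801 and 820 to 169 and 213 CPM, a change of -2.07 (adjusted p = 2.49e-07), and Uty, with -1.22 (adjusted p = 0.0103). Kdm5d had 9 and 1 against 13 and 15 UMIs and did not pass (0.52, adjusted p = 0.481). These 4 genes were singled out after their values were seen.

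Eif5, the GTPase-activating partner of eIF2 (chr12:111538016-111546752, plus strand), fell as far as Eif4e did, with 154 and 176 against 113 and 121 UMIs and 734 ± 89.8 against 269 ± 34.5 CPM. Its log2 fold change was -1.45 (SE 0.17, adjusted p = 5.69e-06), and -0.75 with the offsets (adjusted p = 0.000438). Both Eif5 and Eif2s2 passed the threshold in every alternative run, UMIs per tube included.

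Of the 5 eIF2B genes and 4 eIF2α kinases, which recharge eIF2 or switch it off, 4 were tested. All of these passed the filter on low counts through the overloaded libraries and not through both sham libraries, so that their calls, given singly, are not counted as a group. Eif2b1 encodes the α subunit of eIF2B, the exchange factor that recharges eIF2 with GTP, and went from 5 and 5 UMIs to 24 and 42. Its level was 22.2 ± 0.626 against 73.7 ± 16.0 CPM, with a log2 fold change of 1.73 (SE 0.44, adjusted p = 0.00398, edgeR). Eif2b2, the β subunit, had 7 and 4 against 26 and 23 UMIs and rose by 1.19 (SE 0.46, adjusted p = 0.0448), a call lost without sham library 2 (0.84, adjusted p = 0.272), without overloaded library 1 (0.94, adjusted p = 0.268), with the offsets (0.80) and in DESeq2 (adjusted p = 0.286). Eif2b5, the catalytic subunit, had 7 and 6 against 16 and 29 UMIs and did not pass (0.81, adjusted p = 0.139). Eif2b3 (5 and 6 against 14 and 12 UMIs) and Eif2b4 (6 and 2 against 7 and 5) were below the filter.

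Eif2ak1 encodes HRI, the eIF2α kinase known for sensing heme, and had 5 and 5 against 23 and 45 UMIs, or 22.2 ± 0.626 against 75.5 ± 22.2 CPM. It rose by 1.77 (SE 0.45, adjusted p = 0.00399, edgeR), by 1.49 with the offsets, and kept the same side of the threshold when each library was left out. The other kinases, Eif2ak2 (PKR), Eif2ak3 (PERK) and Eif2ak4 (GCN2), had 5 and 4, 7 and 6, and 4 and 4 UMIs in sham and 11 and 10, 18 and 13, and 15 and 10 in overloaded libraries, and were too low to test.

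**Figure D3:**
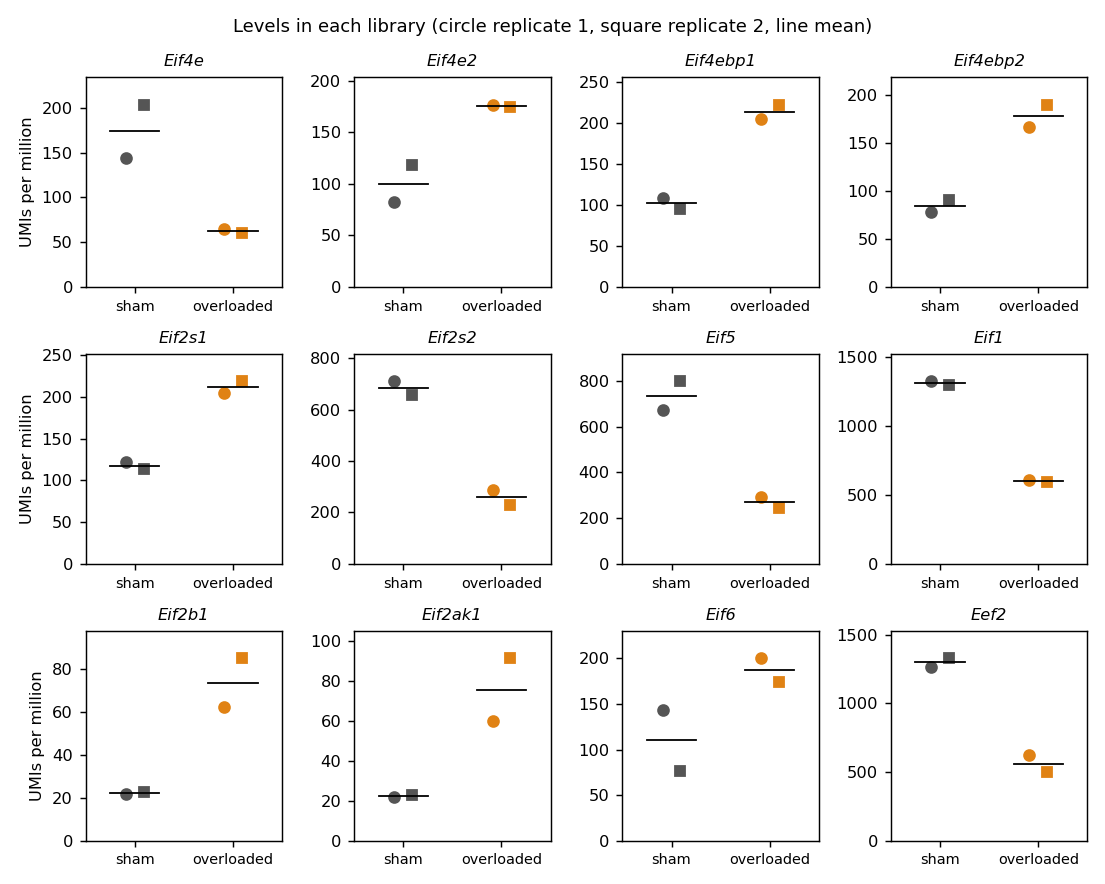
TMM-normalised CPM of 12 factors in each library, with sham in grey, overloaded in orange, circles for replicate 1, squares for replicate 2 and lines for the group means. The 2 groups do not overlap in any panel; Eif4e, Eif2s2, Eif5, Eif1 and Eef2 are lower in the overloaded libraries and the other 7 higher.

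Start codon selection is the work of eIF1 and eIF1A, which hold the scanning ribosome open until an AUG in good context is met. Eif1 (chr11:100319885-100322096, plus strand) was with Eef2 the most abundant factor row in sham cells, with 304 and 287 UMIs against 233 and 293 in overloaded libraries, or 1312 ± 16.4 against 600 ± 8.83 CPM. It fell by 1.13 (SE 0.15, adjusted p = 2.29e-05, edgeR). With the abundance offsets the value was -0.14 (adjusted p = 0.432), so that the fall of Eif1 was close to that of other genes of its abundance. Eif1a also fell under TMM (-0.85, adjusted p = 0.000541) and not with the offsets (-0.21, adjusted p = 0.316), and Eif1ax and Eif1b did not pass.

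The start codons of these mRNAs are shown because eIF1 is known to limit its own synthesis through the poor context of its own AUG. Below are the 6 bases before the AUG, the AUG and the base after it, read from GENCODE M21 transcripts, with capitals for position -3 and position +4 counted from the A of AUG as +1, where a purine and a G make a strong context.
Eif1: tatCgtatgT
Eif1b: tgtCgcatgT
Eif5: gccAaaatgT
Eif2s1: ttcAgaatgC
Eif2s2: acaGccatgT
Eif4e: tctAagatgG
Eif4ebp1: ggaGacatgT
Eef1a1: gcaAaaatgG
Eef2: gccAccatgG
Eif1 and Eif1b had neither feature. An annotated AUG was found for 65 factors, and for all but Eif4g2, whose main product is known to begin at a GUG. Among these 65, 57 (87.7%) had a purine at -3, beside 88.2% of 6815 genes tested, and 4 (6.15%) had neither feature, beside 5.69%. A purine at -3 was present in 16 of 17 lower and in 11 of 12 higher factors, and these shares were not tested.

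The eIF3 complex, the scaffold of the small subunit, showed no common direction. Of its 14 genes 12 were tested. Of these 6 were lower (Eif3a, Eif3e, Eif3f, Eif3h, Eif3j1 and Eif3k) and 1 higher (Eif3g, 0.63, adjusted p just under the threshold at 0.09996, edgeR). Among all genes 26.3% were lower and 25.8% higher. In 11 of the 12 the groups did not overlap, beside 72.9% of all genes. With the abundance offsets 2 were higher (Eif3c and Eif3i) and 1 lower (Eif3j1), beside 20.8% and 21.8% of all genes. The call of Eif3g was lost when either overloaded library or sham library 2 was left out, with 0.25 for the last. Eif3a, the largest subunit, had 131 and 115 against 151 and 144 UMIs and 546 ± 34.8 against 342 ± 71.4 CPM, and fell by 0.69 (SE 0.18, adjusted p = 0.00516, edgeR), but had a value of -0.01 with the offsets. Eif3j1, a loosely bound subunit that contacts the decoding site, was lowest in the group at -0.99 (87 and 91 against 95 and 78 UMIs, adjusted p = 0.000986) and stayed lower with the offsets (-0.53, adjusted p = 0.0337). The last 300 bases of Eif3j2, a copy on another chromosome, matched Eif3j1 at 99.7%, so that reads of the 2 could be exchanged, though Eif3j2 held only 3, 5, 3 and 4 UMIs. The calls of Eif3e, Eif3f and Eif3k were lost when overloaded library 2 or either sham library was left out.

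Subunit joining gave a rise and no change that passed. Eif6, which keeps free large subunits from joining too early, had 33 and 17 against 77 and 86 UMIs, or 110 ± 47.1 against 187 ± 18.4 CPM. It rose by 0.75 (SE 0.26, adjusted p = 0.0276, edgeR) and by 0.84 with the offsets, but without sham library 2 the value was 0.33 (adjusted p = 0.436), and DESeq2 gave an adjusted p of 0.216. Eif5b, the GTPase that joins the subunits, had 94 and 94 against 160 and 203 UMIs and 417 ± 11.8 against 414 ± 3.49 CPM, a log2 fold change of -0.01 (SE 0.16, adjusted p = 0.956). With the abundance offsets Eif5b was higher by 0.66 (adjusted p = 0.00158), since most genes of its abundance were lower.

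Of 8 tested Eef genes 2 were higher (Eef1a2 and Eef1e1) and 2 lower (Eef2 and Eef1b2), close to the 52.1% of all genes called in either direction. With the abundance offsets 2 were higher and 0 lower, beside 20.8% and 21.8% of all genes, and the value of Eef1b2 turned from -0.69 to 0.23. Eef2, the translocase (chr10:81176631-81182498, plus strand), had 291 and 293 UMIs in sham and 240 and 246 in overloaded libraries, or 1297 ± 42.9 against 561 ± 89.0 CPM, and fell by 1.21 (SE 0.16, adjusted p = 2.08e-05, edgeR). With the offsets the value was -0.25 (adjusted p = 0.131). Eef2k, the kinase that inhibits eEF2, had 3 and 2 against 9 and 15 UMIs and was not tested. Eif5a, which helps elongating ribosomes past prolines once hypusine is attached, had 83 and 80 against 116 and 161 UMIs and did not pass (-0.20, SE 0.17, adjusted p = 0.351), and the sign was positive with library sizes alone (0.08) and the offsets (0.37). Eef1g, a subunit of the exchange complex of eEF1A, had 64 and 58 against 113 and 119 UMIs and a log2 fold change of -0.03 (SE 0.19, adjusted p = 0.919), whose sign also turned with library sizes alone (0.25) and the offsets (0.42). Eef1e1, an adaptor of the multisynthetase complex, had 13 and 11 against 30 and 58 UMIs and rose by 0.89 (adjusted p = 0.0453, edgeR). The call was lost without overloaded library 2 (0.59), without sham library 2 (0.77) and in DESeq2 (adjusted p = 0.294).

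Eef1a2, the form of eEF1A used by mature muscle fibers and neurons, had the largest log2 fold change among the 51 tested factors, with 4 and 0 UMIs in sham and 12 and 26 in overloaded libraries. Its levels were 8.71 ± 12.3 and 41.9 ± 15.2 CPM and the log2 fold change was 2.23 (SE 0.68, adjusted p = 0.0135, edgeR). It was 1.25 without sham library 2, which held none (adjusted p = 0.190), and without overloaded library 2 it fell below the filter. Without sham library 1 only a library at 0 was left and no fold is given. DESeq2 gave an adjusted p of 0.148, and with the abundance offsets the sign turned (-0.37, adjusted p = 0.775). Myofiber transcripts moved with Eef1a2: all 7 of the 8 markers that could be tested were higher, at 0.161% and 0.0848% of UMIs in sham and 0.343% and 0.324% in overloaded libraries, and their part in the value of Eef1a2 was not tested.

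Eef1a1, the general form of eEF1A, had 110 and 56 UMIs in sham and 156 and 136 in overloaded libraries, 366 ± 159 against 341 ± 92.1 CPM, and did not pass (-0.13, SE 0.24, adjusted p = 0.701). A row named for a microRNA, Mir703, held more, with 192 and 208 against 228 and 225 UMIs. The annotated hairpin of Mir703 matches bases 80 to 187 from the 3' end of the Eef1a1 transcript at 98.2% over 109 bases, and the mature sequence occurs unchanged inside that transcript, beginning 159 bases from its end. It is given here with bases 2 to 8, the seed, in capitals (RefSeq, GRCm38.p6, chr5:98475616-98475636, minus strand).
mmu-miR-703: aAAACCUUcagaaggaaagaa
Another row, Gm26384, matched the same bases at 98.2% and held 8, 24, 17 and 8 UMIs. CEL-Seq2 captures poly(A) RNA at its 3' end and does not read hairpins as such, and molecules of the 3 rows cannot be told apart in the table. With the 3 rows summed, a choice made after seeing the data, Eef1a1 had 310 and 288 against 401 and 369 UMIs. The 2 sham sums differed far less than the Eef1a1 row alone, and the log2 fold change became -0.57 (SE 0.17, adjusted p = 0.0127, edgeR), or 0.47 with the abundance offsets (adjusted p = 0.00441). The direction of the summed Eef1a1 thus turned with the scaling. Of the 65 factors searched, 7 had such a near-identical 3' end elsewhere (at least 95% identity over at least 100 of the last 300 bases), and outside Eef1a1 and the Eif3j pair no copy in the table held more than 8 UMIs in a library.

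Most large falls were in abundant factors, and the change of a gene followed its abundance in the whole table. Ranked by mean level and divided into 10 bins, the genes tested changed by a median of 0.53 in the lowest bin and -0.74 in the highest, where 70.8% were lower. Of the genes tested, 25.5% passed the filter on low counts in the overloaded but not in both sham libraries. For 6.12% it was the reverse. The part of these genes in the trend was not tested. Of the 51 factors 16 were in bin 10, where their median was -0.59, and 10 in bin 9, with -0.40 beside -0.28 for all genes there. The 8 factors of bin 8, with Eif4ebp1, Eif4ebp2, Eif4e2, Eif2s1 and Eif6 among them, had 0.78 beside -0.09. Eif4e, at -1.46, was in bin 6, where all genes had a median of 0.13.

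**Figure D4:**
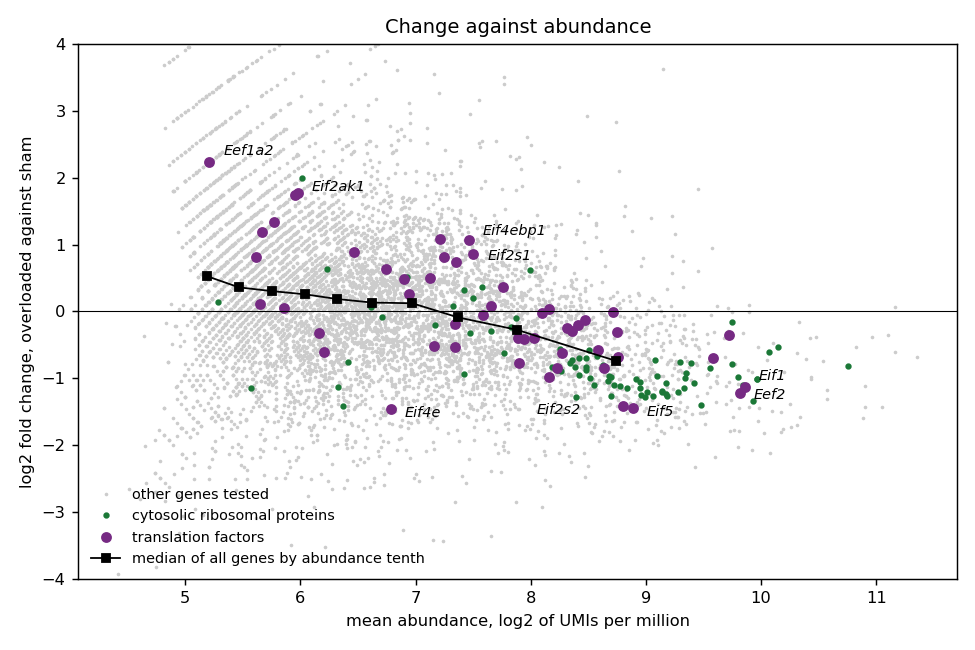
Log2 fold change against mean abundance for the genes tested, with translation factors in purple, ribosomal proteins in green and the median of all genes in each of 10 abundance bins as black squares; 120 genes beyond 4 on the vertical axis are not shown. The black line runs from 0.53 down to -0.74, and most ribosomal proteins and the factors Eif1 and Eef2 lie near or below it.

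Promoters of the factors were searched for the E-box CACGTG, the letters bound by MYC and its relatives, which reads the same on both strands. RefSeq promoter windows (GRCm38.p6, 250 bases before to 50 after each annotated start) were found for 52 of the 66. The motif was in 7.15% of all windows and in a window of 12.4% of genes tested. It was in a window of 13 of the 52 factors (25%), in 6 of 14 lower ones, in 0 of 10 higher ones and in 4 of 16 that did not pass. In Eif3a, one of the lower factors, the match lay after the start, and in the others at least 1 match lay before it. Ribosomal protein genes had it in 9.38%. The lower factors Eif4e, with 2 matches in 1 window, and Eef2 are shown with the motif in capitals and 20 bases on either side, on the gene's strand.
Eif4e, chr3:138527020-138527065: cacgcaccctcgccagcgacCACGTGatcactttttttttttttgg
Eif4e, chr3:138527184-138527229: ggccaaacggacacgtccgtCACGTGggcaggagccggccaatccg
Eef2, chr10:81176568-81176613: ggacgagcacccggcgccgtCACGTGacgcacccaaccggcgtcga
These matches begin 228 and 64 bases before the start in Eif4e and 43 in Eef2. A match describes the letters and nothing was measured at these promoters, and the counts were not tested. The split into lower and higher factors has no share of all lower or all higher genes beside it.

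The genes around the factors gave a wider view of the translation apparatus. Cytosolic ribosomal proteins made up 4.12% and 4.08% of UMIs in sham and 2.93% and 2.38% in overloaded libraries, and the factors made up 1.35% and 1.28% against 1.2% and 1.14%. Of 81 ribosomal protein genes tested 63 (77.8%) were lower and 2 (2.47%) higher, beside 26.3% and 25.8% of all genes. Their median of -0.88 was -0.23 with the offsets (28 lower and 7 higher, beside 21.8% and 20.8% of all genes) and 0.07 per tube. Cytosolic aminoacyl-tRNA synthetases and their scaffold Aimp1, which charge tRNA for elongation, were mixed: of 21 tested 8 (38.1%) were higher and 5 (23.8%) lower, the latter near the 26.3% of all genes, with a median of 0.50. Of the higher ones Farsb (10 and 7 against 32 and 53 UMIs) and Rars (18 and 6 against 37 and 52) passed the filter on low counts through the overloaded libraries and not through both sham libraries. Vars (17 and 16 against 62 and 101 UMIs) rose by 1.33 (adjusted p = 0.000675), and Cars (38 and 49 against 25 and 30 UMIs) fell by 1.62 (adjusted p = 0.00011, edgeR).

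The integrated stress response, the program that phosphorylated eIF2α sets going, was measured in 6 of its listed genes, of which 5 fell and 1 rose under TMM, beside 26.3% lower and 25.8% higher among all genes. The counts were the same under the abundance offsets (21.8% lower and 20.8% higher among all genes), where the values of Atf4, Ppp1r15a, Ppp1r15b and Atf5 were nearer 0 and those of Chac1 and Psat1 farther from it. Per tube, 2 were lower and 1 higher, beside 4.58% and 62% of all genes. Asns, on the list but below the filter, had 0 and 0 against 7 and 7 UMIs. Atf4, its transcription factor, had 309 and 261 against 197 and 244 UMIs and fell by 1.33 (adjusted p = 5.69e-06, edgeR), or by 0.38 with the offsets. Ppp1r15a, whose product GADD34 brings phosphatase to eIF2α, had 225 and 197 against 123 and 168 UMIs and also fell (adjusted p = 1.82e-06). Ppp1r15b, Atf5 and Chac1 had values of -1.23, -1.28 and -1.57 and fell, while Psat1, an enzyme of serine synthesis, rose by 2.31 (18 and 13 against 125 and 177 UMIs, adjusted p = 1.1e-06, edgeR). Chac1 (21 and 19 against 11 and 15 UMIs) passed the filter on low counts through the sham libraries and not through both overloaded libraries. The median of the 6 was -1.30, beside 0.05 for all genes, and -0.79 with the offsets, beside 0.01.

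Among 20 tested genes of the TORC1 pathway 5 were higher and 4 lower, close to the background. Of the higher genes Mtor (5 and 7 against 17 and 31 UMIs) and Lamtor4 (5 and 4 against 15 and 29) passed the filter on low counts through the overloaded libraries alone. Among all genes called higher, 62.1% did not pass it in both sham libraries. Lamtor1, which anchors TORC1 at the lysosome, rose by 1.63 (adjusted p = 0.000303) and Pdcd4, an inhibitor of eIF4A, by 1.09 (25 and 23 against 84 and 116 UMIs, adjusted p = 0.00081). Sesn2, an inhibitor of TORC1, fell by 2.05 (18 and 25 against 10 and 10 UMIs, adjusted p = 0.000481), and Mknk2, which encodes a kinase of eIF4E, by 1.31 (86 and 93 against 68 and 72 UMIs, adjusted p = 3.29e-05, edgeR). These 4 kept their direction and their call with the abundance offsets. Sesn2 passed the filter through the sham libraries alone.

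Smaller lists had few members to test, and their counts are to be read beside 25.8% higher and 26.3% lower among all genes. Termination and recycling had 0 higher and 2 lower of 4, led by Etf1, the release factor eRF1, which fell by 1.22. Poly(A)-binding proteins and their partners had 0 higher and 1 lower of 4, Pabpc1 at -1.02, a value of -0.20 with the offsets. Enzymes that modify eIF5A and eEF2 had 0 higher and 1 lower of 4. Noncanonical initiation had 3 higher and 1 lower of 6. Denr (8 and 5 against 29 and 29 UMIs), Mcts1 and Dap rose, and the helicase Ddx3x fell by 1.73 (225 and 212 against 128 and 126 UMIs, adjusted p = 8.93e-07, edgeR). Denr passed the filter on low counts through the overloaded libraries alone. Mcts1 passed narrowly under TMM (adjusted p = 0.0937) and lost its call with the offsets (0.57, adjusted p = 0.165, edgeR). Of 9 mitochondrial translation factors 3 were tested. Tsfm (3 and 3 against 23 and 25 UMIs) and Gfm1 (6 and 2 against 26 and 31) were higher but passed the filter through the overloaded libraries alone, and Mrrf (9 and 9 against 12 and 8) did not pass the test under TMM. With the offsets Mrrf was lower (-1.54, adjusted p = 0.0139, edgeR). Tsfm then lost its call (1.12, adjusted p = 0.118) and Gfm1 kept it (1.29, adjusted p = 0.0499, edgeR). Other mRNAs of the TOP class, which share translational control with ribosomal proteins, had 0 higher and 3 lower of 7. With the offsets 2 were higher (Npm1 and Nap1l1) and 1 lower (Tpt1), beside 20.8% and 21.8% of all genes, and Rack1 turned from -0.87 to 0.11. The genes named from these lists were singled out after their values were seen.

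**Figure D5:**
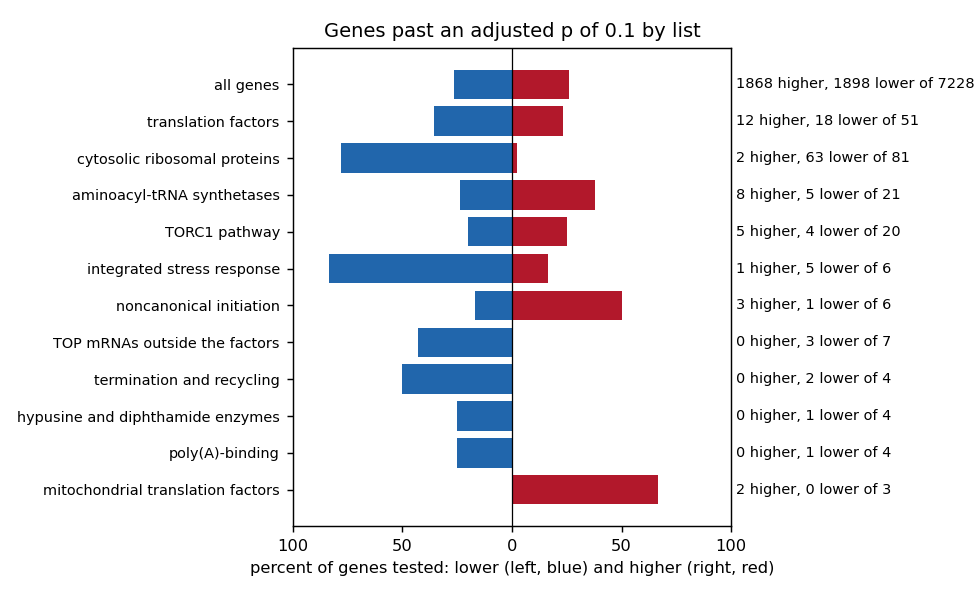
Percent of tested genes past an adjusted p of 0.1 (edgeR, TMM scaling) in each list, lower in blue to the left and higher in red to the right, with the counts beside each bar. Ribosomal proteins (63 of 81) and the integrated stress response (5 of 6) are mostly lower, and the factors hold 12 higher and 18 lower of 51.

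The 15 factors below the filter were counted but not tested. They held between 2 and 44 UMIs each over the 4 libraries and together 93 in sham and 277 in overloaded libraries. In CPM 6 of them (40%) were higher in both overloaded libraries than in both sham libraries and 1 (6.67%) was lower in both, beside 29.6% and 17.4% of 8808 untested genes with the same range of totals. The lysine methyltransferase Eef1akmt4 had 1 and 1 UMIs in sham against 11 and 11, and Eef1akmt3 had 0 and 0 against 0 and 2. At these depths 3 UMIs correspond to 11.1 and 11.5 CPM of the whole library in sham and 7.73 and 6.20 in overloaded libraries, so that lower levels could not be distinguished from absence.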

How the data were processed

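Barcodes and UMIs were extracted by the authors with UMI-tools (version 1.0.0), reads were aligned to GRCm38 with HISAT2 (version 2.1.0) and assigned with featureCounts (version 1.6.4), and the authors deposited one table of UMI counts per gene, without normalization. Annotation release, strand setting and treatment of multiply mapped reads are not given in the sources used here. In GENCODE M21 exons of 19 factors share bases with an opposite-strand gene and exons of 13 with a same-strand gene, Eif2ak1, Eif4e, Eif5 and Eif6 among them, and reads of such neighbours may be mixed.

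Counts were fitted over all 7228 genes kept by filterByExpr (minimum count 10, minimum total 15) with glmQLFit and glmQLFTest of edgeR (version 4.0.16, R version 4.3.3), TMM factors of 0.909 and 0.908 in sham and 1.08 and 1.12 in overloaded libraries, no covariate, and Benjamini-Hochberg adjustment over these genes at the threshold of 0.1 that the study used. The common biological coefficient of variation was 9.50%, and 3732 genes had an unadjusted p under 0.05. Some markers passed the filter through the overloaded libraries and not through both sham libraries. These were Ly6a, Rgs5, Myh4, Cd74, Lyz2, Kdm5d and the 6 cell cycle markers. CPM values are relative to TMM-scaled totals of the genes tested. No replicates were near-identical: between replicates the chi-square per degree of freedom was 1.27 in sham and 1.54 in overloaded libraries.

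Alternatives were upper-quartile factors, loess offsets for abundance, DESeq2 size factors, no factors beyond library size, DESeq2 (version 1.42.0), limma-voom (limma version 3.58.1), no filter, a mean of at least 20 counts, a correction for molecules drawing the same of 4096 UMIs, thinning, an adjusted p of 0.05, a replicate block, each library left out, UMIs per tube, and, added after seeing the data, the copies of Eef1a1 summed. Near-identical 3' ends were found with blastn (version 2.17.0). Figures and intervals used Python version 3.11.15 and scipy version 1.17.1.

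Values and tests are given by rule for Eef1a1, Eef1a2, Eef2, Eef1g, Eif4e, Eif4ebp1, Eif4g1, Eif4g2, Eif4a1, Eif4a2, Eif2s1, Eif3a, Eif5a, Eif5b and Eif6, and for the 5 largest rises and the 5 largest falls past the threshold without overlap; other factors and genes given with values were chosen after these were seen. The members, the lists and the named genes were chosen with earlier results of these data known. No list was tested as a set.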

Additional observations from a re-analysis of the deposited data

How the results depend on the processing

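Of the counts of factors, 12 higher and 18 lower, DESeq2 gave 4 and 11, library sizes alone 11 lower, loess offsets for abundance 5 lower, and UMIs per tube 34 higher and 2 lower. The median log2 fold change of the factors was -0.19, and became 0.089 with library sizes alone, 0.25 with the offsets, -0.095 with upper-quartile factors, 0.12 with no filter (66 factors) and 0.77 per tube. Leaving out 1 library gave 6 to 11 higher, 12 to 20 lower and medians of -0.17 to -0.0041, with 6 higher and a median of -0.032 without sham replicate 2, -0.0041 without sham replicate 1 and -0.14 without overloaded replicate 2. Without sham replicate 1 or sham replicate 2, 60 factors were tested in place of 51, so these counts do not share a total. The median of all genes was then 0.099 and 0.083, beside 0.051 in the main fit. An adjusted p of 0.05 in the main fit left 11 higher and 13 lower.

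The sign of several named factors turned. With library sizes alone Eef1a1 was 0.15, Eef1g 0.25, Eif5a 0.077 and Eif5b 0.26. With the abundance offsets Eef1a1 was 0.44, Eef1a2 -0.37, Eef1g 0.42, Eif4a1 0.040, Eif4g1 0.25, Eif4g2 0.62, Eif5a 0.37 and Eif5b 0.66. Eef1g and Eif5b, near 0 under TMM, were 0.066 and 0.080 with upper-quartile factors, 0.083 and 0.097 with a mean of at least 20 counts and 0.052 and 0.066 with no filter, and Eef1g was 0.048 after thinning. Leaving out 1 library turned Eef1a1 (-0.54 to 0.38), Eef1g (-0.15 to 0.16), Eif4a2 (-1.24 to 0.44) and Eif5b (-0.076 to 0.038). Eef1a1 with its copies added, an alternative chosen after seeing the data, was -0.57. The causes were not tested.

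With the replicate number as a block (replicate block) 11 factors were higher and 16 lower, with a median of -0.19; Eif3g, Eif3f and Eif2s3y lost their calls. Deviations of same-numbered libraries had a correlation of -0.03, so the numbers were not used as pairs, which with 2 libraries a group does not show whether mice were shared. Depth left 15 factors untested.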
